A study of Mus musculus with 7 samples.

Results

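Chemokines are small secreted proteins that guide migrating cells, and the genes described here are 10 members of that family: Ccl2, Ccl7, Ccl8, Ccl9, Cxcl1, Cxcl5, Cxcl10, Cxcl12, Cxcl16 and Cx3cl1. They were chosen by name, with their measured values in the comparison of lnc-SMaRT-depleted and control cells known, and were found in the expression table by matching its gene symbols. 6 of the 10 genes, Ccl2, Ccl7, Ccl9, Cxcl5, Cxcl12 and Cx3cl1, had a row among the 11642 rows of the table. Ccl8, Cxcl1, Cxcl10 and Cxcl16 had no row, and their levels are not reported here. Of 41 chemokine genes searched, 7 had a row, the other one being Ccl25.

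The samples were C2C12 cells, a mouse myoblast line that fuses into myotubes in low serum, on day 2 of differentiation. The control cells received a scramble siRNA (si-SCR) and the depleted cells received siRNA#1 against the muscle long non-coding RNA lnc-SMaRT (si-SMaRT), with 2 samples each, so only 1 siRNA against the transcript was sequenced. The study describes 2 independent cell populations and does not state whether si-SCR and si-SMaRT samples shared a population. The p-values measure the spread between these samples only. RNA recovered with probes against lnc-SMaRT, with probes against LacZ as the negative control and the input were sequenced as 1 library each.

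Chemokines signal through receptors on the surface of their target cells and are grouped as CC, CXC and CX3C by the spacing of their first cysteines. CC members such as Ccl2 and Ccl7 attract monocytes, CXC members such as Cxcl1 and Cxcl5 attract neutrophils, and Cxcl12 acts through Cxcr4 on progenitor cells. Muscle cells are known to secrete chemokines, and many inducible chemokine genes are classical targets of NF-kB, a family of transcription factors held in the cytoplasm by IkB proteins until the IKK kinases release them.

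Depletion was visible in the targeted transcript, whose level was 19.1 and 15.9 RPKM (reads scaled to gene length and library size) in si-SCR 1 and 2 and 2.88 and 3.66 RPKM in si-SMaRT 1 and 2. The log2 fold change was -2.39 with an adjusted p of 0.000882 (limma, Benjamini-Hochberg over all genes tested). The effective library sizes ran from 11291255 to 14312935 reads. In the study's read counts, the rRNA and tRNA filter removed far more read pairs from si-SMaRT 1 than from any other sample. The part of that loss in the values was not tested. All 8 myotube markers had a row, and their summed level was 5745 and 5755 RPKM in si-SCR and 3903 and 3082 RPKM in si-SMaRT. 2 of 9 leukocyte markers had a row, Cd68 and Itgam, with a summed level of 1.14 to 1.63 RPKM over the 4 samples, and none of 4 endothelial markers had one. The si-SMaRT samples differed from each other with GC content: over 10553 genes, the rank correlation of GC content with the log2 difference of si-SMaRT 2 from si-SMaRT 1 was -0.846, against 0.379 between the si-SCR samples.

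The promoters of the measured chemokine genes are shown first, because their transcripts were compared together. RefSeq promoter sequences (build GRCm38.p6) were at hand for 6 of the 10 genes, of which Ccl9, Cxcl12 and Cx3cl1 also had a row in the expression table. Those of Ccl2, Ccl7, Cxcl5 and Cxcl16 are not shown. The 250 bases before each start site are printed 5′ to 3′ on the strand of the gene, and capitals mark the NF-kB consensus in Ccl9 and the GC box GGGCGG, on either strand, in Cxcl12 and Cx3cl1.
Ccl9, chr11:83578637-83578886, minus strand: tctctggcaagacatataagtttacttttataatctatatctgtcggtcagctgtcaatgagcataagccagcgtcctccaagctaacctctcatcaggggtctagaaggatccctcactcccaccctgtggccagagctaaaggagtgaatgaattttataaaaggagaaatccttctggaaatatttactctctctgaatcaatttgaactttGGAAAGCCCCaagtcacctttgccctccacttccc
Cxcl12, chr6:117168285-117168534, plus strand: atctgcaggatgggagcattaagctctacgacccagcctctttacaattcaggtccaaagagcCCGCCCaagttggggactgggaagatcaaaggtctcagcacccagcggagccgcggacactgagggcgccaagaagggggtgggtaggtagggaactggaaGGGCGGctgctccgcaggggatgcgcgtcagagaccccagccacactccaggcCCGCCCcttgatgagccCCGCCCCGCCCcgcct
Cx3cl1, chr8:94771930-94772179, plus strand: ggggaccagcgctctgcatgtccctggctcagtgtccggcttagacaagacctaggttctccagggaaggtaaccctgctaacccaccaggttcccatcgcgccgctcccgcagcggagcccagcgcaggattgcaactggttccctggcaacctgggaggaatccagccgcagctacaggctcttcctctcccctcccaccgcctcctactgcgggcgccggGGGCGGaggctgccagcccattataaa

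The Ccl9 window had 1 match to the NF-kB consensus, starting at position -35 from the start site, and 1 match to the AP-1 motif TGANTCA at -53, with no overlap between them. Of 32851 promoter windows of this length, 7.25% held the NF-kB consensus on either strand and 6.75% held TGANTCA. The Cxcl12 window had 5 matches to GGGCGG and no match to the NF-kB consensus. The Cx3cl1 window had 1 match to GGGCGG, which 32.7% of the windows held, and no NF-kB match. A match describes letters in these windows and is not evidence of binding.

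Among the chemokine genes with no row in the expression table, Cxcl1 and Cxcl10 are long-studied NF-kB target genes, and 30 bases around their first match are printed to set the letters beside those of Ccl9. Capitals again mark the NF-kB consensus.
Cxcl1: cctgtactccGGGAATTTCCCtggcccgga
Cxcl10: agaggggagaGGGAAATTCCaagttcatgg
The Cxcl1 window of 250 bases had 2 matches that overlap each other. The Cxcl10 window had 3 matches, 2 of them overlapping, and 1 match to the interferon response motif, which 2.98% of the windows held.

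Ccl2, Ccl7, Ccl9, Cxcl5 and Cxcl12 were higher in both si-SMaRT samples than in both si-SCR samples, by 1.48 to 4.26 times in the ratio of means. Cx3cl1 was higher in only 1 of the si-SMaRT samples. Since the genes were chosen with these values known, the values are a description, and how many of them pass a threshold is given further on for the same purpose only. In bulk RNA, a change in the number of cells that make a transcript and a change in the amount made per cell cannot be told apart.

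**Figure D1:**
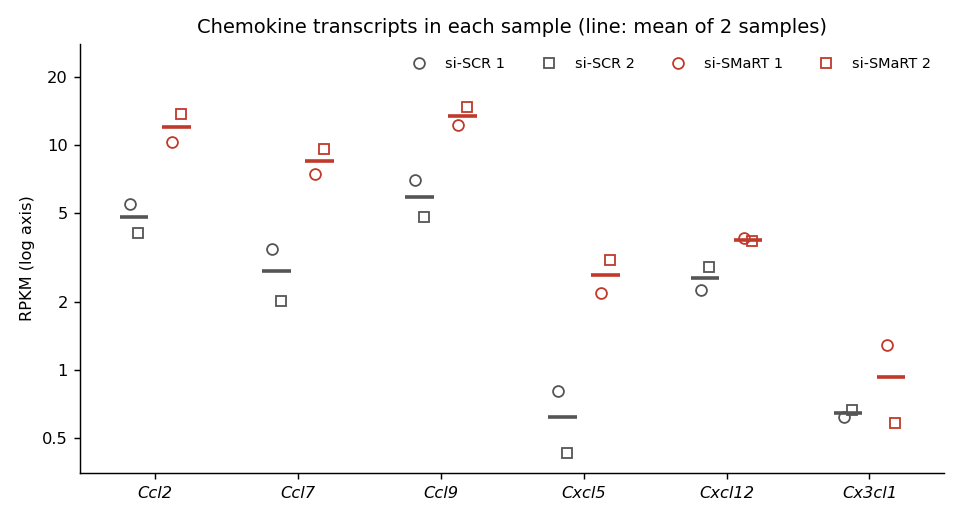
RPKM (log axis) of the 6 chemokine genes in each of the 4 samples, with circles for replicate 1, squares for replicate 2 and a line at the mean of 2 samples. The si-SMaRT points lie above the si-SCR points for 5 genes and overlap them for Cx3cl1.

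Of the CC chemokines, Ccl2 (MCP-1), the main attractant of monocytes, was at 5.49 and 4.04 RPKM in si-SCR 1 and 2 and at 10.3 and 13.6 RPKM in si-SMaRT 1 and 2. The lowest si-SMaRT value lay above the highest si-SCR value. The means were 4.76 ± 1.02 and 11.9 ± 2.37 RPKM (SD, n = 2), a log2 fold change of 1.31 with a standard error of 0.29 on the log2(RPKM + 0.1) scale. These values rest on 79, 65, 132 and 222 reads in the same order of samples. Exact Poisson 95% intervals, which cover counting error only, reached 6.84 RPKM at the top in si-SCR 1 and began at 8.60 RPKM in si-SMaRT 1.

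Ccl7 (MCP-3), which shares receptors with Ccl2 and also attracts monocytes, was at 3.45 and 2.03 RPKM in si-SCR and at 7.41 and 9.60 RPKM in si-SMaRT. Again the groups did not overlap. Its log2 fold change was 1.63 with a standard error of 0.31, on 23 to 110 reads a sample. Ccl2 and Ccl7 lie next to each other on chromosome 11 with 8258 bases between them, and the ratio of Ccl2 to Ccl7 was 1.59 and 1.99 in si-SCR and 1.39 and 1.42 in si-SMaRT. Both genes therefore had their higher control value in si-SCR 1 and their higher depleted value in si-SMaRT 2.

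Ccl9, a CC chemokine of mice that acts through Ccr1, had the highest level of the measured chemokines in all 4 samples, with 6.96 and 4.76 RPKM in si-SCR and 12.2 and 14.7 RPKM in si-SMaRT. It rested on 268 and 205 reads in si-SCR and on 420 and 640 reads in si-SMaRT. The log2 fold change was 1.204 with a standard error of 0.29, and the ratio of means was 2.29. Ccl9 is on chromosome 11 as well, 1535465 bases from Ccl2.

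Cxcl5, a CXC chemokine that attracts neutrophils through Cxcr2, was on average the lowest member in the control cells. Its level was 0.812 and 0.428 RPKM in si-SCR and 2.19 and 3.08 RPKM in si-SMaRT, on 17, 10, 41 and 73 reads. These reads are lower limits, since no gene model fixed their common factor. The groups did not overlap, and the log2 fold change was 1.96 with a standard error of 0.35. That was the largest log2 fold change of the members at this pseudocount, while with a pseudocount of 1 it was 1.17, below the 1.36 of Ccl7. In RPKM the difference of means was smaller for Cxcl5 than for Ccl2, Ccl7 and Ccl9.

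Cxcl12 (SDF-1), the ligand of Cxcr4 and Ackr3, was at 2.27 and 2.87 RPKM in si-SCR and at 3.87 and 3.73 RPKM in si-SMaRT. The depleted samples were close to each other and above both controls, by 1.48 times in the ratio of means. The log2 fold change of 0.56 had a standard error of 0.29. Unlike the CC genes and Cxcl5, Cxcl12 was higher in si-SCR 2 than in si-SCR 1.

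Cx3cl1 (fractalkine), which is made as a membrane-bound protein and shed by proteases, was at 0.618 and 0.668 RPKM in si-SCR and at 1.29 and 0.584 RPKM in si-SMaRT. The si-SMaRT 1 sample was above both controls and si-SMaRT 2 was below both. The log2 fold change was 0.39 with a standard error of 0.38, and it was -0.12 without si-SMaRT 1 and 0.90 without si-SMaRT 2. Cx3cl1 has a GC content of 57.1%, and its log2 difference between si-SMaRT 2 and si-SMaRT 1 was -1.02, beside a median of -0.66 over 859 genes of like GC content. The part of GC content in the Cx3cl1 value was not tested.

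For the other members the same measure was closer to that of genes of like GC content. Ccl2, at 44.3% GC, differed by 0.40 between si-SMaRT 2 and 1, where genes of like GC content had a median of 0.41. Ccl9, at 42.1%, differed by 0.26 beside a median of 0.52, and Cxcl5, at 41.3%, by 0.47 beside 0.59. The AT-rich members thus had their higher depleted value in the sample in which AT-rich genes in general were higher. Between si-SCR 2 and 1, Ccl2, Ccl7, Ccl9 and Cxcl5 differed by -0.432, -0.737, -0.537 and -0.789, beside medians from -0.094 to -0.126. Over 10553 genes, the rank correlation of GC content with the log2 difference of si-SMaRT from si-SCR was -0.293. With the GC trend removed, the log2 fold changes of these members were 1.201, 1.507, 1.066 and 1.817 in the same order. The cause of the trend was not tested.

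**Figure D2:**
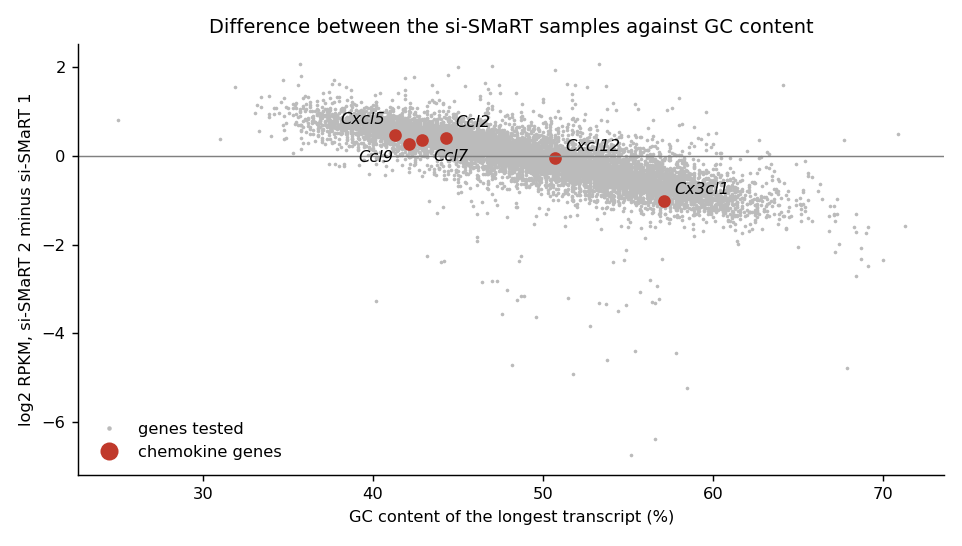
Log2 difference of si-SMaRT 2 from si-SMaRT 1 against the GC content (%) of the longest transcript, for genes tested (grey) and the 6 chemokine genes (red). Ccl2, Ccl7, Ccl9 and Cxcl5 lie above 0 with the AT-rich genes, Cxcl12 near 0 and Cx3cl1 at -1.02.

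In the order of levels per length, si-SCR cells had Ccl9, Ccl2, Ccl7, Cxcl12, Cx3cl1 and Cxcl5, from 5.86 to 0.620 RPKM on average. Neighbours in that order overlapped between samples for Ccl9 and Ccl2, for Ccl7 and Cxcl12 and for Cx3cl1 and Cxcl5. In si-SMaRT cells the order was Ccl9, Ccl2, Ccl7, Cxcl12, Cxcl5 and Cx3cl1, from 13.5 to 0.937 RPKM, and only Ccl9 and Ccl2 overlapped. Cxcl5 was therefore below Cx3cl1 on average in the controls and above it in the depleted cells.

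The summed level of the 6 genes was 19.6 and 14.8 RPKM in si-SCR and 37.3 and 45.3 RPKM in si-SMaRT. Ccl2, Ccl7 and Ccl9 made up 73.2% to 83.7% of that sum in the 4 samples. On average Ccl9 was above 46.0% of all rows of the table in si-SCR and above 67.8% in si-SMaRT, and Cxcl5 moved from 6.90% to 25.9%. The chemokine transcripts were thus of middle to low abundance in both groups.

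In the fit over all genes (limma on log2(RPKM + 0.1), Benjamini-Hochberg adjusted p under 0.05), 56 of 11086 genes passed the threshold, a background of 0.505%, with 20 higher (0.18%) and 36 lower (0.325%) in si-SMaRT. Of the 6 chemokine genes 2 passed, Ccl7 and Cxcl5, both higher. Both si-SMaRT samples were above both si-SCR samples for 5 of the 6 chemokine genes and for 20.2% of all genes tested, and below both for none of the 6 and for 20.4% of all genes. The median log2 fold change of the 6 genes was 1.26, beside 0.02 over all genes tested. These counts use the contrast by which the genes were chosen, so nothing is read from them.

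The number of chemokine genes past the threshold depended on single samples. It was 1 without si-SCR 1 (Benjamini-Hochberg over 11081 genes), 0 without si-SCR 2, and 4 without either si-SMaRT 1 or si-SMaRT 2. Over all genes the same settings gave 23, 28, 2911 and 940 genes. In those fits the lone sample of a group was assumed to vary like the others, so the counts measure no spread within that group. With the GC trend of each sample removed, 4 chemokine genes and 391 genes in all passed. Ccl2, Ccl7, Ccl9, Cxcl5 and Cxcl12 were above 0 in all 17 other settings tried, and Cx3cl1 in 15 of 16. For genes whose groups did not overlap, a value above 0 was fixed in advance when 1 sample was left out. Changes of the filter, the prior variance or the block alone leave the estimate as it was. Nothing is therefore read from this tally.

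**Figure D3:**
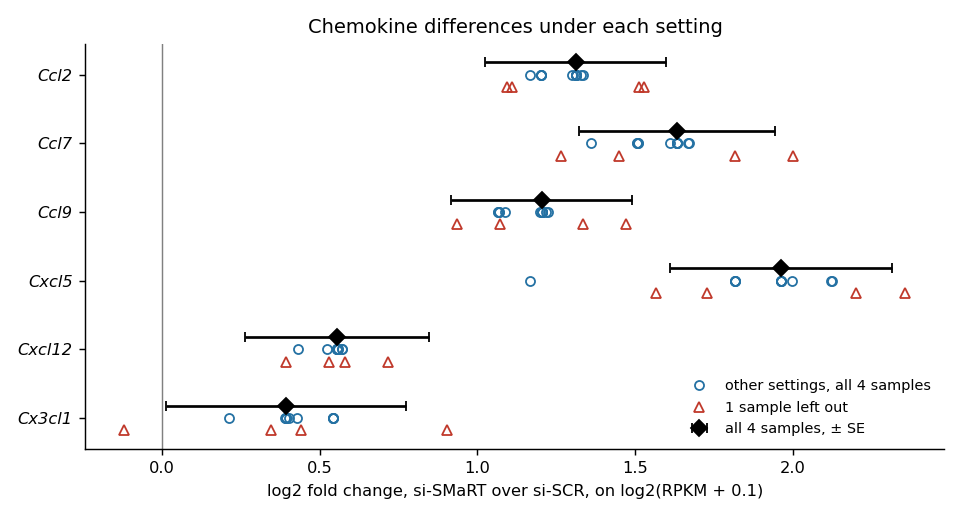
Log2 fold change of each chemokine gene, si-SMaRT over si-SCR, with all 4 samples (black, ± SE), under other settings of the fit (blue) and with 1 sample left out (red). Cx3cl1 is the only gene with a value below 0, at -0.12 without si-SMaRT 1.

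Ccl25, the remaining chemokine gene with a row and known for guiding developing T cells, was at 1.78 and 1.38 RPKM in si-SCR and at 1.89 and 1.62 RPKM in si-SMaRT. Its groups overlapped, with a log2 fold change of 0.15. Of 23 chemokine receptor genes, only Cxcr4 and Ackr3, both receptors of Cxcl12, had a row. Cxcr4 was at 12.9 and 13.2 RPKM in si-SCR and at 18.6 and 16.2 RPKM in si-SMaRT. The log2 fold change of 0.41 did not pass the test (limma adjusted p = 0.694). Ackr3, which binds Cxcl12 and removes it from the cell surface, was at 5.78 and 4.97 RPKM in si-SCR and at 9.97 and 10.1 RPKM in si-SMaRT. Its log2 fold change of 0.89 did not pass either (limma adjusted p = 0.225). Ackr3 did pass with the GC trend removed (log2 fold change 0.86, limma adjusted p = 0.0233). Its log2 fold change was 0.90 without si-SMaRT 1 and 0.88 without si-SMaRT 2. The receptors of Ccl2, Ccl7, Ccl9 and Cxcl5 had no row.

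Of the proteases that act on chemokines, Adam10 and Adam17, which shed Cx3cl1 and Cxcl16, had log2 fold changes of 0.28 and -0.07. Of 7 genes for proteins that bind chemokine mRNA or govern its decay, none passed (limma; 1 had an unadjusted p under 0.05, and 0 passed with voom). The largest values were 0.65 for Hnrnpd (AUF1), an AU-rich element binding protein, and 0.48 for Elavl1 (HuR), which stabilises such mRNAs. The smallest were -0.15 for Zc3h12a (Regnase-1), a nuclease that degrades inflammatory mRNAs, and 0.32 for Zfp36l1. Without si-SMaRT 1, the log2 fold changes of Hnrnpd, Elavl1 and Zfp36l1 were 0.73, 0.54 and 0.55. Khsrp, whose groups overlapped, had 0.42 with all 4 samples and 0.84 without si-SMaRT 2.

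NF-kB genes were measured as context for the chemokines in 5 lists, for subunits, inhibitors, kinases, receptors and adaptors, and targets other than chemokines. 48 of 63 genes had a row, 47 were tested and none passed the threshold in limma, while 4 had an unadjusted p under 0.05. Voom on the reads recovered from the RPKM values also called 0 of them. The count was 13 without si-SMaRT 1, or 27.7% of the genes beside 26.3% of all genes tested. It was 2 without si-SMaRT 2, or 4.26% beside 8.50%, and 3 with the GC trend removed, or 6.38% beside 3.71%. The median log2 fold change of the 47 genes was 0.10.

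The subunit Rela, which pairs with p50 in the classical pathway, was at 6.46 and 10.4 RPKM in si-SCR and at 11.6 and 7.07 RPKM in si-SMaRT, so its groups overlapped. The log2 fold changes of the subunits were 0.15 for Rela, -0.14 for Relb, 0.34 for Rel, 0.30 for Nfkb1 and -0.12 for Nfkb2. Rel and Nfkb1 were higher in both si-SMaRT samples, as were 20.2% of all genes tested. Among the inhibitors, Nfkbia, itself a target of NF-kB, had 0.13, Nfkbib -0.51, Nfkbie -0.12, the nuclear protein Nfkbiz 0.25 and Bcl3 -0.33. Nfkbia and Nfkbiz were higher in both si-SMaRT samples and Nfkbib was lower in both, as were 20.4% of all genes tested. Without si-SMaRT 1, the log2 fold changes of Nfkb2, Nfkbib and Bcl3 were -0.51, -0.85 and -0.96.

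Of the kinase list, Tab3 and Map3k7 (TAK1) had the largest values, 0.34 and 0.22, and Tab1 and Ikbkg (NEMO) the smallest, -0.52 and -0.33. Of the receptors and adaptors, Il1r1, the signalling receptor of interleukin-1, had 0.78 and Traf3 0.44, while Tnfrsf12a had -0.46 and Traf2 -0.30. Il1r1 was at 15.9 and 16.9 RPKM in si-SCR and at 23.9 and 33.2 RPKM in si-SMaRT, with a limma adjusted p of 0.307. Il1r1 passed with the GC trend removed (log2 fold change 0.66, limma adjusted p = 0.0377). Its log2 fold change was 1.01 without si-SMaRT 1. Without si-SMaRT 1, the log2 fold changes of Tab1, Tnfrsf12a and Traf2 were -0.95, -0.80 and -0.56. The receptor gene Tlr4, whose groups overlapped, had 0.25 with all 4 samples and 0.68 without si-SMaRT 1.

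Of the NF-kB targets other than chemokines, Csf1, the growth factor of macrophages, was at 5.26 and 6.23 RPKM in si-SCR and at 14.2 and 10.6 RPKM in si-SMaRT. Its log2 fold change of 1.09 did not pass (limma adjusted p = 0.113). Ptgs2, the inducible enzyme of prostaglandin synthesis, had 0.97. With the GC trend removed both passed in limma, Csf1 at 1.19 with an adjusted p of 0.00858 and Ptgs2 at 0.81 with an adjusted p of 0.0376. Without si-SMaRT 1 the log2 fold changes were 0.88 for Csf1 and 1.38 for Ptgs2, and without si-SMaRT 2 Csf1 had 1.30. Bcl2l1 and Gadd45b were at the other end with -0.47 each, and had -0.74 and -0.73 without si-SMaRT 1. Over the 10 targets tested the median was -0.18, with 3 genes higher and 4 lower in both si-SMaRT samples, beside 20.2% and 20.4% of all genes tested. Besides Csf1 and Ptgs2, the higher genes included Vcam1 at 0.88 (limma adjusted p = 0.238). Vcam1 had 0.94 without si-SMaRT 1 and 0.82 without si-SMaRT 2.

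**Figure D4:**
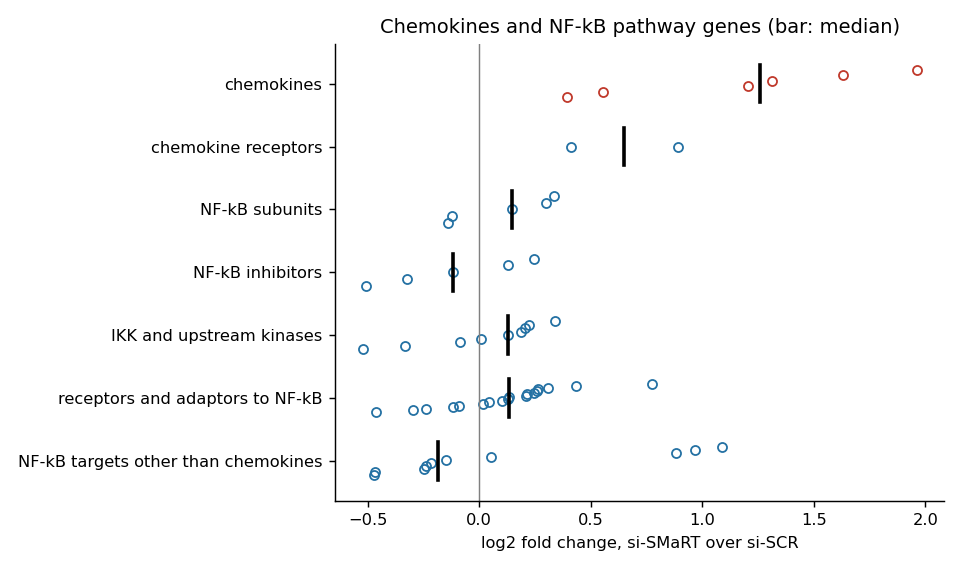
Log2 fold change, si-SMaRT over si-SCR, of the chemokine genes (red) and of the receptor and NF-kB genes tested (blue), 1 point a gene, with a bar at the median of each list. The chemokine median is 1.26 and the medians of the 5 NF-kB lists lie between -0.18 and 0.15.

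Of the interferon factors, which drive Cxcl10 among other genes, Irf9, whose row joins overlapping genes, had a log2 fold change of 0.19, whereas Irf3 had -0.62 and Irf1 -0.33. None of these genes passed the test (limma), with an adjusted p of 0.912 for Irf9, 0.508 for Irf3 and 0.797 for Irf1, and 0 passed with voom. The unadjusted p was under 0.05 for 1 of them, Irf3.

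Markers of other cell types and states are given beside the chemokine genes. Of the 8 myotube markers, 6 were lower in both si-SMaRT samples, beside 20.4% of all genes tested, and none passed (limma; 3 had an unadjusted p under 0.05, and 1 passed with voom). The 3 fibroblast markers with a row summed to 106 and 111 RPKM in si-SCR and to 208 and 191 RPKM in si-SMaRT, and none passed (limma; 1 had an unadjusted p under 0.05, and 0 passed with voom). Dcn, a matrix proteoglycan, was higher in both si-SMaRT samples with a log2 fold change of 1.03. Col1a1, a collagen chain, overlapped between groups, with 40.0 and 54.9 RPKM in si-SCR and 105.5 and 41.6 RPKM in si-SMaRT, and so did Pdgfra, with a log2 fold change of 0.05. The part of the myotube and fibroblast markers in the chemokine values was not tested. Of the leukocyte markers, Cd68 had a log2 fold change of 0.08, and Itgam, under the filter on low values, was at 0.496 and 0.555 RPKM in si-SCR and at 0.208 and 0.252 RPKM in si-SMaRT.

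The genes outside all lists whose profile over the 4 samples was nearest to the mean of the chemokine genes, by root mean square distance of centred log2(RPKM + 0.1) over 11004 genes, were F3 (0.071), Ccnd1 (0.096), Enox1 (0.11), Slc19a2 (0.114) and Grem1 (0.115). F3, tissue factor, was at 5.01 and 4.34 RPKM in si-SCR and at 11.3 and 11.2 RPKM in si-SMaRT.

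In the pull-down of lnc-SMaRT RNA, the peak list had 345 peaks and that of the LacZ probes 336. None of them overlapped any of the 42 chemokine and receptor genes searched, in either library. Most of these genes had no row in the expression table (7 of 41 chemokine genes had one). The share of all genes with a peak was not counted, so nothing is read from this on binding. Each list comes from 1 library, with no replicate check.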

How the data were processed

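The authors made the RPKM values. After trimming (Trimmomatic) and depletion of rRNA and tRNA sequence (Bowtie 2), reads were placed on GRCm38 by TopHat2 and assigned to Ensembl 77 genes by htseq-count, genes of low CPM were filtered out, and libraries were scaled by TMM. A gene missing from the table may have been removed by that filter, and RPKM is not corrected for GC content. The deposited p-value of each peak was made with Piranha on 1 library, and the lists do not state whether the calls are against the input or LacZ.

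The si-SMaRT and si-SCR samples were compared in limma (version 3.58.1, R 4.3.3), by lmFit and eBayes (trend on), using log2(RPKM + 0.1). Rows under a mean of 0.5 RPKM were left out, p-values were adjusted by Benjamini-Hochberg, and the threshold was 0.05. The test was checked on simulated data. Reads were recovered from the RPKM steps for 11642 rows, within a tolerance of 0.0001. The common factor was fixed by a gene model for 6513 rows, and elsewhere the reads are lower limits. Rows that join genes numbered 576. GC content came from the longest transcript (GENCODE M21), for a joined row from the gene with the longest one. That definition replaced the mean over the joined genes after values were seen, and both are given. The trend with GC content was removed by loess with span 0.3. Python 3.11.15 was used for the rest.

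Members and lists were chosen with earlier results of these data known. The genes named were all members, other chemokines, receptors, proteases, NF-kB subunits and inhibitors with a row. From other lists they were the genes past the threshold or, where there were none, the 2 largest and 2 smallest log2 fold changes. The 5 nearest profiles and lnc-SMaRT completed the rule. Dcn, Col1a1, Pdgfra, Cd68, Itgam, Khsrp, Tlr4 and Vcam1 were named after their values were seen. The promoter motifs, and which of them is in capitals, were chosen after the sequences were seen. An E-box CANNTG (66.2% of windows) and TATAAA (7.59%) were also searched. Ccl9 and Cx3cl1 each had 1 match to both and Cxcl12 had none.

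The alternatives were pseudocounts of 1 and 0.01, other filters, quantile normalization, no trend in the prior variance, voom on recovered reads, removal of the GC trend, a replicate block and each sample left out. One gene that the rule would name is withheld and not reported here.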

Additional observations from a re-analysis of the deposited data

How the results depend on the processing

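The count of genes past the threshold was 56 (0.505% of all genes tested). It was 37 (0.334%) with quantile normalization, 104 (0.938%) with voom on recovered reads and 96 (0.866%) with the replicate block. It was 391 (3.71%) with the GC trend removed and 231 (2.19%) with both the GC trend removed and the replicate block. With 1 sample left out it ran from 23 to 2911, and the lone sample of a group was then assumed to vary like the others. The count of chemokine genes past the threshold was 2, and it was 1 with quantile normalization, 4 with the GC trend removed, 4 with that and the replicate block, and 0 to 4 with 1 sample left out, the 0 being without si-SCR 2. The count of NF-kB genes was 0, and it was 3 with the GC trend removed, 1 with that and the replicate block, and 0 to 13 with 1 sample left out.

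A fit with a block has 1 residual degree of freedom, against 2 without it, and leans on the prior variance taken from all genes. The deviations of same-numbered samples correlated at -0.362. The differences between replicates followed GC content in opposite directions, with rank correlations of -0.846 in si-SMaRT and 0.379 in si-SCR. The correlation of -0.362 therefore cannot decide whether the numbers pair the samples. The main fit used no pairing, and the replicate block is the paired alternative. A crossed block, added after the values were seen, gave 487 genes (4.39% of all genes tested), 4 chemokine genes and 3 NF-kB genes (6.38% of those tested). Rows that join genes were first given the mean GC content of their genes. Under that first definition, 394 genes (3.73%), 4 chemokine genes and 3 NF-kB genes (6.38%) passed with the GC trend removed. With the replicate block as well, 640 genes (6.065%), 4 chemokine genes and 5 NF-kB genes (10.6%) passed. The change of definition thus moved the last count of genes from 640 to 231. The estimated prior degrees of freedom (median over genes) were 18.2 under the first definition and 8.06 under the second, and the cause was not tested.

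The log2 fold change of Cxcl5 was 1.17 with a pseudocount of 1, by construction, since its RPKM is low. The median of the chemokine genes ran from 1.02 to 1.499 over all alternatives. With 2 samples a group and 10 to 73 reads on Cxcl5, which are lower limits, small differences between samples were not detectable.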
